A study of Mus musculus with 14 samples.

Results

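Nuclear receptors are transcription factors that bind small lipophilic ligands, or have no known ligand, and act directly on DNA. The mRNAs of 38 of their genes, other than the corticosteroid receptors, were followed in mouse colon. They were chosen by name as receptors of retinoids, thyroid hormone, vitamin D, fatty acids, sterols, bile acids, xenobiotics and oestrogens, with the orphan receptors. No measured value entered the rule, although earlier results of these data were known when it was made. The 38 genes are a small part of the 19092 genes to which the array's probes could be assigned, and each was represented by 1 probe, the one with the highest mean signal. The samples were whole colon from female C57BL/6 mice aged 4 to 6 months on chow diet. Flox mice carry loxP-flanked alleles of Nr3c1, the glucocorticoid receptor gene, and have no cre transgene. GR iKO mice carry the same alleles with Villin-cre, which deletes the gene in intestinal epithelium and leaves it in the other cells of the wall. Each genotype was given regular drinking water (4 mice each) or 2.5% dextran sodium sulphate (DSS), which injures the colon epithelium and causes colitis, for 7 days (3 mice each), so there were 14 arrays. The design answers 2 questions for each receptor: whether its mRNA changed with DSS, and whether it differed with the epithelial deletion.

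Most members of the family share a zinc-finger DNA-binding domain that reads a short hexamer, and many bind as heterodimers with a retinoid X receptor to a repeated hexamer. Without ligand many of them recruit corepressors, and with ligand they recruit coactivators. In the intestine the vitamin D receptor drives calcium uptake, the HNF4 receptors maintain the enterocyte programme, the pregnane X and farnesoid X receptors sense xenobiotics and bile acids, and the retinoic acid receptors shape both the epithelium and the immune cells of the mucosa.

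Signals are given as levels, the log2 signal of a probe minus the log2 of its array's 75th percentile, so a level of 0 is the signal of the 75th percentile probe. A level is compared between arrays for the same probe and never between genes. Array values are listed in replicate order, where the Flox DSS arrays are replicates 1, 2 and 4 and the GR iKO DSS arrays replicates 1, 3 and 4. Tests were run on the 29523 probes that stood well above background on 3 or more arrays, among them those of 32 of the 38 receptors. The 75th percentile itself was 262 to 1003 signal units, the lowest on a Flox DSS array, and 62.6% to 71.2% of probes were well above background. Nr3c1, the targeted gene, averaged 1.19 ± 0.14 (SD, n = 4) on the Flox water arrays and 0.39 ± 0.16 (SD, n = 4) on the GR iKO water arrays, or 57.3% of the Flox signal (two-sided exact permutation p = 0.0286, the smallest this design allows). On DSS the levels were 1.27 ± 0.20 (SD, n = 3) and 0.43 ± 0.05 (SD, n = 3), 56.1% of Flox (exact permutation p = 0.1, again the smallest possible). Under scaling to the spike-in transcripts, an alternative chosen after seeing the data, the log2 difference on DSS turned from -0.83 to 0.40, while on water it was -0.99 in place of -0.80. DSS arrays were more variable than water arrays. The median SD per probe was 0.18 and 0.17 for Flox and GR iKO on water, and 0.26 and 0.34 on DSS.

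With DSS, 8 receptors changed in both genotypes in the same direction, with no overlap between water and DSS arrays in either. These 8 of 32 stand beside 31.1% of all tested probes that met the same criteria. The retinoid receptor genes Rarb and Rxrg, the clock receptor gene Rora and the orphan receptor gene Nr2f2 were higher. The genes of the vitamin D receptor (Vdr), a thyroid hormone receptor (Thrb), the oestrogen receptor beta (Esr2) and HNF4 gamma (Hnf4g) were lower. However, under normexp background correction the Esr2 change turned to 0.22 in Flox and neither Esr2 nor Hnf4g was called. Esr2 was not well above background on any DSS array and entered the tests only through its water arrays. In Flox mice 13 of the 32 receptors passed an adjusted p of 0.05 (40.6%), 5 higher and 8 lower. Of all tested probes 52.6% passed (24.4% higher and 28.2% lower). Of the 13 receptors, 12 had no overlap between the groups, beside 49.4% of all probes. Under normexp background correction 13 also passed in Flox, but 8 were higher and 5 lower, where 65.0% of all called probes were higher. In GR iKO mice 12 of 32 passed (37.5%), 5 higher and 7 lower, beside 44.5% of all tested probes (22% higher and 22.5% lower), and 11 had no overlap, beside 40.6%. By none of these counts was the share of receptors above that of the array as a whole. Their median log2 change was -0.03 in Flox, beside -0.09 for all probes, and -0.19 in GR iKO, beside -0.02. All of these changes are relative to the array's own 75th percentile. Scaling to the spike-in transcripts moved the median of all probes by -2.39 for Flox and by -0.97 for GR iKO mice, and no receptor was then called higher. This scaling moves all probes of an array by the same amount, and whether the amounts of spike-in and of RNA were equal on all arrays could not be checked from the files.

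**Figure D1:**
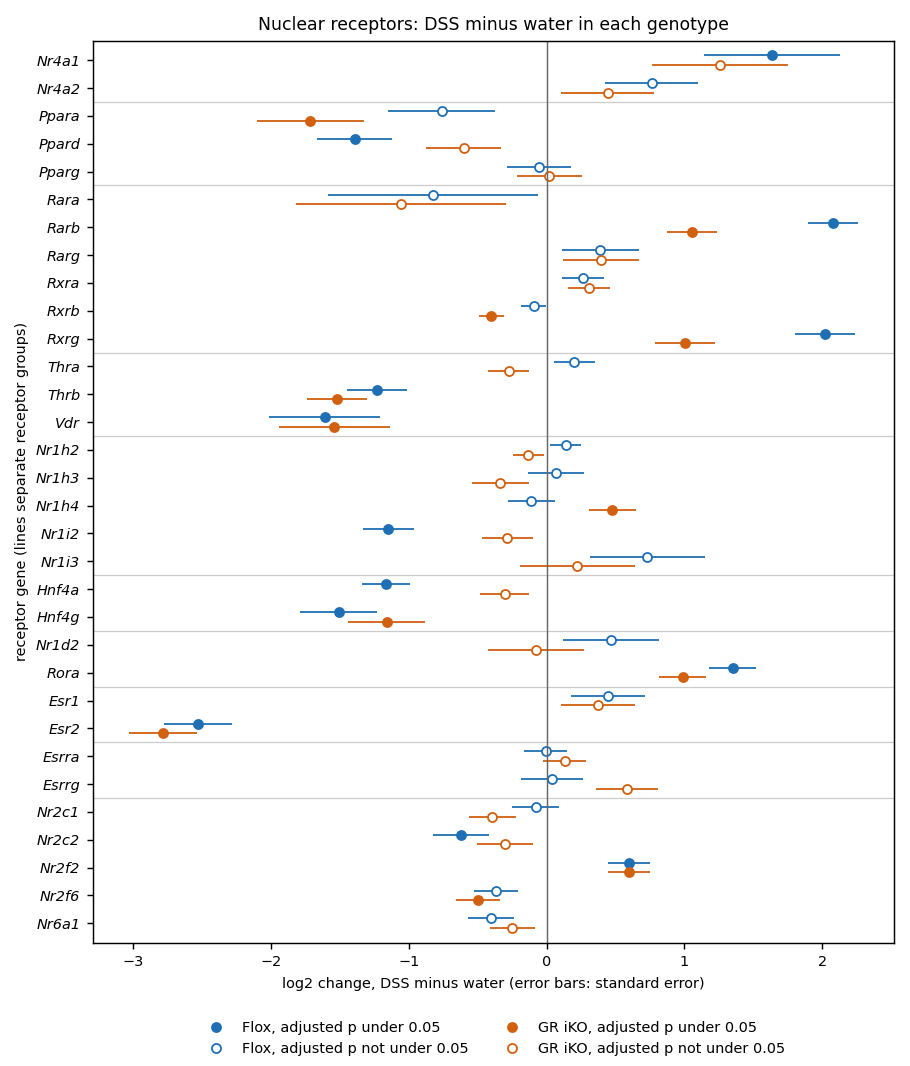
Each point is the log2 change of 1 receptor gene (DSS minus water, on the horizontal axis) in Flox (blue) or GR iKO mice (orange), with its standard error, and filled points passed an adjusted p of 0.05 in limma. Rarb, Rxrg, Rora and Nr2f2 lie to the right of 0 and Vdr, Thrb, Esr2 and Hnf4g to the left with filled points in both genotypes, relative to the 75th percentile of each array (under spike-in scaling no receptor was called higher, and under normexp correction Esr2 and Ppard turned in Flox).

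The samples were pieces of the whole wall, and fewer cells of a type cannot be told apart from less RNA per cell. Marker lists of the cell types in the wall also changed with DSS, and their part in the receptor results was not tested. In Flox mice all 7 tested markers of enteric nerve and glia (median log2 change 2.34), all 7 of smooth muscle (1.34), all 6 of fibroblasts and matrix (1.36) and all 5 of neutrophils (4.69) were called higher. In GR iKO mice the counts were 7 of 7 for nerve and glia (1.45), 1 of 7 for smooth muscle (0.15), 6 of 6 for fibroblasts (0.98) and 5 of 5 for neutrophils (5.98). Of all probes 24.4% were called higher and 28.2% lower in Flox, and 22% and 22.5% in GR iKO mice. The summed smooth muscle level ran from 8.78 to 9.45 in Flox on water and from 10.03 to 10.88 on DSS, and from 8.70 to 9.42 and 8.47 to 9.69 in GR iKO mice. The nerve and glia sum rose from between 1.40 and 1.71 to between 3.70 and 4.26 in Flox, and from between 1.41 and 1.83 to between 2.78 and 3.27 in GR iKO mice. Ret, a defining gene of enteric neurons, was not well above background on any array. Of 10 epithelial markers, 1 was called higher and 4 lower in Flox (median -0.45), and 1 higher and 1 lower in GR iKO (0.03). The epithelial sum was 10.11 to 10.37 and 9.70 to 10.36 in Flox on water and DSS, and 10.14 to 10.38 and 10.16 to 10.66 in GR iKO. Markers of B and plasma cells went down in 4 of 5 cases in Flox and in 2 of 5 in GR iKO mice, and macrophage markers went up in 3 of 6 and in 5 of 6.

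The retinoid receptors held the largest called increases, relative to the 75th percentile. Rarb encodes retinoic acid receptor beta, whose own gene is a classical target of retinoic acid. Its level was -1.61, -1.64, -1.87 and -1.76 on Flox water and 0.58, 0.31 and 0.19 on Flox DSS. In GR iKO mice Rarb was at -1.19, -1.80, -1.51 and -1.87 on water and at -0.55, -0.26 and -0.81 on DSS. Every DSS array was above every water array of its genotype, and the 3 Flox DSS arrays were also above the 3 GR iKO DSS arrays. The rise was 2.08 ± 0.18 on the log2 scale (SE), or 4.23-fold, in Flox (limma adjusted p = 3.66e-06) and 1.05 ± 0.18, or 2.07-fold, in GR iKO mice (adjusted p = 0.000602). Within the slides that held both groups the rise was 1.95 to 2.19 in Flox and 0.65 to 1.25 in GR iKO mice.

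Rxrg encodes retinoid X receptor gamma, the member of the shared partner receptors with the most restricted expression. Rxrg was at -2.95, -2.94, -3.05 and -2.67 on Flox water and at -0.80, -0.65 and -1.20 on Flox DSS. The GR iKO levels were -2.73, -2.93, -2.69 and -3.08 on water and -2.25, -1.28 and -2.02 on DSS. Again both genotypes separated without overlap, and all Flox DSS arrays were above all GR iKO DSS arrays. The gene rose by 2.02 ± 0.22 (SE) on the log2 scale, 4.06-fold, in Flox (adjusted p = 1.43e-05) and by 1.00 ± 0.22, 2.00-fold, in GR iKO mice (adjusted p = 0.00261). The within-slide rise was 1.47 to 2.29 in Flox and 0.47 to 1.41 in GR iKO. The markers of nerve and glia, smooth muscle, fibroblasts and adipocytes moved with these 2 genes, in that their median change was also the greater in Flox. For adipocytes it was 1.15 in Flox and -1.43 in GR iKO mice. The other cell type lists had the lower median in Flox. Whether any of these cell types accounts for any of the rise was not tested.

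The other retinoid receptors were not called higher in either genotype. Rxra, the retinoid X receptor of most epithelia, changed by 0.26 ± 0.15 (SE) in Flox and 0.31 ± 0.15 in GR iKO mice and did not pass. Rxrb, the ubiquitous member, fell by 0.40 ± 0.09 on the log2 scale in GR iKO mice (adjusted p = 0.00359) with no overlap, and its value of -0.10 ± 0.09 in Flox did not pass (adjusted p = 0.402). A second Rxrb probe passed in both, at -0.44 (adjusted p = 0.0355) and -0.72 (adjusted p = 0.00314). Rarg, the retinoic acid receptor of stratified epithelia, changed by 0.39 ± 0.28 and 0.40 ± 0.28 and did not pass, but normexp background correction called it in Flox. Rara was well above background on only 6 arrays, none of them DSS arrays, and gave no call (-0.83 ± 0.76 and -1.06 ± 0.76). Its water arrays alone ran from -7.06 to -3.58.

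Genes that make, bind and break down retinoic acid form the pathway around these receptors. Of 15 tested, 8 were higher, 2 lower and 5 not called in each genotype. The median log2 change was 1.19 in Flox and 0.92 in GR iKO. Beside these counts, 24.4% of all probes were higher and 28.2% lower in Flox, and 22% and 22.5% in GR iKO. Dhrs9, a retinol dehydrogenase, was well above background on all DSS arrays but none of the water arrays. Its rise was at least 4.63-fold in Flox and at least 7.99-fold in GR iKO. The limma tests used the measured log2 changes, 4.02 (adjusted p = 1.08e-06) and 5.12 (adjusted p = 4.82e-07), and not these bounds. Dhrs9 is counted among the 8 higher genes, but its probe entered the tests only through its DSS arrays. Aldh1a3, a retinaldehyde dehydrogenase that makes retinoic acid, rose by 3.43 ± 0.50 (SE) and 4.39 ± 0.50. Aldh1a2, another such enzyme, rose by 3.09 ± 0.42 in Flox and 2.08 ± 0.42 in GR iKO mice. Tgm2, a transglutaminase gene that retinoic acid is known to induce, rose by 2.27 ± 0.22 and 2.97 ± 0.22. Rbp2, the retinol-binding protein of enterocytes, went the other way, at -1.86 ± 0.56 and -2.39 ± 0.56 (adjusted p = 0.0142 and 0.00429). Cyp26a1, which degrades retinoic acid and is induced by it, was well above background on 6 of 14 arrays and was not called in either genotype (1.59 ± 0.77 and 0.92 ± 0.77).

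Vdr and Thrb, receptors of the same subfamily that bind DNA with a retinoid X receptor, fell in both genotypes. Vdr stood at 4.57, 3.85, 4.29 and 4.62 on Flox water and at 2.2, 3.00 and 2.96 on Flox DSS. In the GR iKO colon Vdr was at 3.78, 4.10, 4.30 and 4.57 on water and at 1.54, 2.81 and 3.59 on DSS. The GR iKO DSS arrays were spread over more than 2 log2 units, and the highest of them lay just under the lowest water array. The fall was -1.61 ± 0.40 (SE) in Flox, 3.06-fold (limma adjusted p = 0.0049), and -1.54 ± 0.40 in GR iKO mice, 2.91-fold (adjusted p = 0.00787). Within slides it ran from -2.37 to -0.85 and from -2.24 to -0.98.

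Genes that Vdr is known to induce were counted beside it. Of 7 tested, 6 were lower and 1 not called in Flox (median -3.62), where 28.2% of all probes were lower, and 5 lower and 2 not called in GR iKO (median -3.07), where 22.5% of all probes were lower. No member was called higher in either genotype. Slc30a10, a manganese exporter, changed by -4.79 ± 0.85 (SE) in Flox and -6.29 ± 0.85 in GR iKO mice, and was still well above background on 2 of 3 Flox and 1 of 3 GR iKO DSS arrays. Slc37a2, a sugar-phosphate exchanger gene, changed by -4.78 ± 0.89 and -5.05 ± 0.89. Trpv6, the apical calcium channel of the enterocyte, changed by -4.30 ± 0.90 and -4.38 ± 0.90 (adjusted p = 0.00171 and 0.002). Cyp24a1, the vitamin D 24-hydroxylase, was not well above background on any array. Atp2b1, the basolateral calcium pump, was the member not called in both genotypes (-0.16 ± 0.15 and 0.16 ± 0.15).

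Thrb, thyroid hormone receptor beta, was at -0.69, -1.13, -0.73 and -0.65 on Flox water and at -2.50, -1.91 and -1.69 on Flox DSS. Its GR iKO levels were -0.75, -0.74, -0.55 and -0.95 on water and -2.72, -2.01 and -2.08 on DSS. Water and DSS arrays did not overlap in either genotype. Thrb fell by 1.23 ± 0.22 (SE) on the log2 scale in Flox (2.35-fold, limma adjusted p = 0.000542) and by 1.52 ± 0.22 in GR iKO mice (2.87-fold, adjusted p = 0.000187). The within-slide values were -1.81 to -0.78 and -1.96 to -1.13. The other 2 tested Thrb probes also passed in both genotypes, with changes of -1.57 and -1.65 in Flox and -1.97 and -1.90 in GR iKO. The first of them was well above background on only 3 arrays, all on water, and entered the tests only through these. The size of its fall is therefore not measured. The second was well above background on all water arrays, but on only 1 Flox and 2 GR iKO DSS arrays. The remaining Thrb probe was not well above background on any array and was not tested. Thra, the other thyroid hormone receptor gene, had changes of 0.20 ± 0.15 in Flox and -0.27 ± 0.15 in GR iKO mice, neither of which passed.

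Around Thrb, 3 of 8 genes of thyroid hormone transport, conversion and response were higher, 1 lower and 4 not called in Flox (median -0.06). In GR iKO 3 were higher, 3 lower and 2 not called (median 0.01). The called shares of all probes were 52.6% and 44.5%. Dio2, the deiodinase that makes the active hormone, rose by 5.30 ± 0.29 (SE) in Flox and 5.86 ± 0.29 in GR iKO mice (limma adjusted p = 4.25e-07 and 2.57e-07). Dio3, the deiodinase that inactivates it, rose by 3.26 ± 0.48 and 3.14 ± 0.48. Dio1 was lower in both, at -2.18 ± 0.55 and -2.72 ± 0.55. Klf9, a gene that the hormone induces, was at 0.22 ± 0.22 and -0.01 ± 0.22 and not called.

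The stretches before the start sites of the receptor genes that moved in both genotypes are shown because receptors of this family bind such hexamers. RefSeq (GRCm38.p6) had promoters for 36 of the 38 receptors and for 7 of these 8, Hnf4g being the other. The 250 bases upstream of each start site were searched on both strands for AGGTCA and AGTTCA, for the direct repeat of GGTTCA and AGTTCA with 5 bases between them, which contains AGTTCA, and for AAAGGTCA, which contains AGGTCA. Of all 32851 promoters in the table, 14% held AGGTCA, 11.8% AGTTCA, 1.34% AAAGGTCA and 0.00609%, or 2 promoters, the direct repeat. Of the 56 promoters of the 36 receptors, 16.1% held AGGTCA, 12.5% AGTTCA, 3.57% (2 promoters) AAAGGTCA and 1.79% (1 promoter) the direct repeat. The sequences below are those of the 4 of the 8 genes with a match, 5′ to 3′ toward the start site, with the matched letters in capitals.
Rarb, chr14:16575477-16575726, minus strand: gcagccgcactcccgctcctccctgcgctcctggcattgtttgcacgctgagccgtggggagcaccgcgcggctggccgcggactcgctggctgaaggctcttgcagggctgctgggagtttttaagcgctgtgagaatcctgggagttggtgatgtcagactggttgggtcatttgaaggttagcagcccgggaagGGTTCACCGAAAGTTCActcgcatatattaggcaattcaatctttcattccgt
Rxrg, second start site, chr1:167618015-167618264, plus strand: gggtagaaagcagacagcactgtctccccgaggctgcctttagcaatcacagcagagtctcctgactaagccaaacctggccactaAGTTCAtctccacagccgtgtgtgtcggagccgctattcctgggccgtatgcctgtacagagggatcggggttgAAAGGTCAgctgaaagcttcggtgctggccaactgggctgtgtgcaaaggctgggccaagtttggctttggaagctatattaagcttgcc
Vdr, chr15:97908297-97908546, minus strand: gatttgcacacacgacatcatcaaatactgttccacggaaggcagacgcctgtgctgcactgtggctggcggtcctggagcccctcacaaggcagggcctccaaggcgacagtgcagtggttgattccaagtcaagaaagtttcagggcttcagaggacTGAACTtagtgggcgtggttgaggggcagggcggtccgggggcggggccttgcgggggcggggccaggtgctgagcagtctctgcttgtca
Thrb, first start site, chr14:17660710-17660959, plus strand: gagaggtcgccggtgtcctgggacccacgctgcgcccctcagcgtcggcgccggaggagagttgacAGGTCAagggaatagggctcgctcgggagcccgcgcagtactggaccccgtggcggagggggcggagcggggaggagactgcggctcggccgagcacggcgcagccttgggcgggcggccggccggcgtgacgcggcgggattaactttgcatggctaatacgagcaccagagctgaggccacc
In Rarb the direct repeat lay from -53 to -37 relative to the start site, and Rarb was the only receptor with it. The letters searched for this repeat are those of the known retinoic acid element of Rarb itself. Its match in Rarb and its share among receptor promoters were therefore fixed by the choice of letters and are not a test. In the second Rxrg promoter AGTTCA lay from -164 to -159 and AAAGGTCA from -90 to -83, while the first Rxrg start site had no match. In Vdr the match was AGTTCA on the opposite strand, printed as TGAACT, from -91 to -86, and in the first Thrb promoter it was AGGTCA from -184 to -179, while the second, not printed, held AGTTCA on the opposite strand from -160 to -155. These are matches of letters and not measured binding sites.

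Of the clock receptors, which repress or activate Arntl through the same element, Rora rose in both genotypes. Rora was at -2.40, -2.24, -2.19 and -2.14 on Flox water and at -1.0, -0.56 and -1.11 on Flox DSS. The GR iKO arrays gave -2.42, -2.27, -2.55 and -2.58 on water and -1.67, -1.08 and -1.64 on DSS. Each DSS array was above each water array of its genotype. The rise was 1.35 ± 0.17 (SE) on the log2 scale, 2.55-fold, in Flox (limma adjusted p = 4.71e-05) and 0.99 ± 0.17, 1.98-fold, in GR iKO mice (adjusted p = 0.000648). The within-slide rise was 1.03 to 1.68 and 0.75 to 1.46. A second Rora probe rose by 1.49 and 0.91 and passed in both. Nr1d2, the REV-ERB beta gene, was at 0.47 ± 0.35 and -0.08 ± 0.35 and was not called, and Rorb was well above background on 1 of 14 arrays.

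Among 14 tested clock genes, 4 were higher, 3 lower and 7 not called in Flox, beside 52.6% of all probes called. GR iKO mice had 4, 2 and 8, beside 44.5%. Nfil3, a repressor that shares sites with the activator Dbp, rose by 3.41 ± 0.41 (SE) in Flox and 2.71 ± 0.41 in GR iKO mice. Arntl, the partner of Clock and a target of the ROR and REV-ERB receptors, changed by -1.83 ± 0.26 and -1.72 ± 0.26. Per1 rose by 1.51 ± 0.21 and 1.06 ± 0.21. The hour at which the tissue was taken is not given in the labels.

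Esr2 encodes oestrogen receptor beta, the oestrogen receptor of colon epithelium. The Esr2 probe was at -4.69, -5.00, -4.85 and -4.94 on Flox water and at -7.64, -7.69 and -6.86 on Flox DSS. Its GR iKO values were -5.23, -5.49, -4.73 and -4.51 on water and -7.89, -7.80 and -7.63 on DSS. It was well above background on all 4 Flox and 3 of 4 GR iKO water arrays and on no DSS array, so the DSS values are bounds. With the background subtracted as in the main values, water over DSS was at least 1.38-fold in Flox and at least 1.68-fold in GR iKO mice. The limma tests used the measured log2 differences, -2.53 (adjusted p = 7.33e-06) and -2.78 (adjusted p = 6.56e-06), and not these bounds. The probe entered the tests only through its water arrays. Under normexp background correction the differences were 0.22 (adjusted p = 0.394) and -0.10 (adjusted p = 0.725). The call for Esr2 thus depends on how the background is subtracted. Esr1, oestrogen receptor alpha, was at 0.44 ± 0.27 (SE) and 0.37 ± 0.27 and was not called. Pgr, the progesterone receptor gene, was not well above background on any array.

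The oestrogen-related receptors regulate mitochondrial genes without a known hormone. Esrra, their main member in the gut, did not pass in either genotype (-0.01 ± 0.15 and 0.13 ± 0.15, SE). The 2 probes of Esrrg disagreed. The probe with the higher mean signal gave 0.04 ± 0.22 in Flox and 0.58 ± 0.22 in GR iKO mice (limma adjusted p = 0.9 and 0.0521). The other probe fell from a mean level of -1.79 to -6.72 in Flox and from -1.74 to -5.98 in GR iKO mice, with log2 changes of -4.93 (adjusted p = 0.000379) and -4.24 (adjusted p = 0.00144), and was well above background on 1 of 3 DSS arrays of each genotype. The 2 probes thus gave no single value for Esrrg. Esrrb was not well above background on any array. Of 10 mitochondrial genes that these receptors are known to regulate, 6 were lower and 4 not called in Flox (median -0.51). In GR iKO 7 were lower and 3 not called (median -0.58). The lower shares of all probes were 28.2% and 22.5%. Idh3a, of the citric acid cycle, changed by -1.80 ± 0.25 and -1.64 ± 0.25, and Sdhb, of complex II, by -1.06 ± 0.17 and -1.17 ± 0.17.

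Hnf4g, the HNF4 receptor gene of the differentiated intestinal epithelium, fell in both genotypes. Hnf4g levels were -2.21, -2.35, -2.17 and -1.98 on Flox water and -3.83, -4.16 and -3.07 on Flox DSS. GR iKO mice had -2.20, -2.22, -1.86 and -2.37 on water and -3.61, -3.71 and -2.65 on DSS. The groups did not overlap, and replicate 4 was the highest DSS array in each genotype. The change was -1.51 ± 0.28 (SE), 2.85-fold lower, in Flox (limma adjusted p = 0.000738) and -1.16 ± 0.28, 2.24-fold lower, in GR iKO mice (adjusted p = 0.0051), and -1.81 to -1.09 and -1.85 to -0.28 within slides. With normexp background correction it was -0.45 (adjusted p = 0.0753) and -0.53 (adjusted p = 0.0566) and was no longer called.

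Hnf4a, the HNF4 receptor that liver and gut share, was called in Flox mice. It was at 2.93, 2.95, 2.98 and 3.08 on Flox water and at 1.89, 1.67 and 1.90 on Flox DSS, and at 2.74, 2.78, 2.87 and 3.16 on GR iKO water and 2.13, 2.64 and 2.98 on GR iKO DSS. The Flox groups lay far apart and the GR iKO groups overlapped. The log2 change was -1.17 ± 0.18 (SE) in Flox (limma adjusted p = 0.000177) and -0.30 ± 0.18 in GR iKO mice (adjusted p = 0.182). Another Hnf4a probe gave -1.19 (adjusted p = 0.00331) and -0.46 (adjusted p = 0.199), and the remaining one -0.16 and -0.02, which was not called in either. Of 11 genes bound and regulated by HNF4, 2 were higher, 5 lower and 4 not called in Flox, beside 52.6% of all probes called. GR iKO mice had 3, 3 and 5, beside 44.5%. Slc5a1, the glucose transporter gene of enterocytes, changed by -2.94 ± 0.24 and -1.41 ± 0.24. Apoa1, an apolipoprotein gene, was well above background on DSS arrays only, and rose at least 11.2-fold in Flox and at least 4.00-fold in GR iKO mice. Its probe entered the tests only through those arrays.

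**Figure D2:**
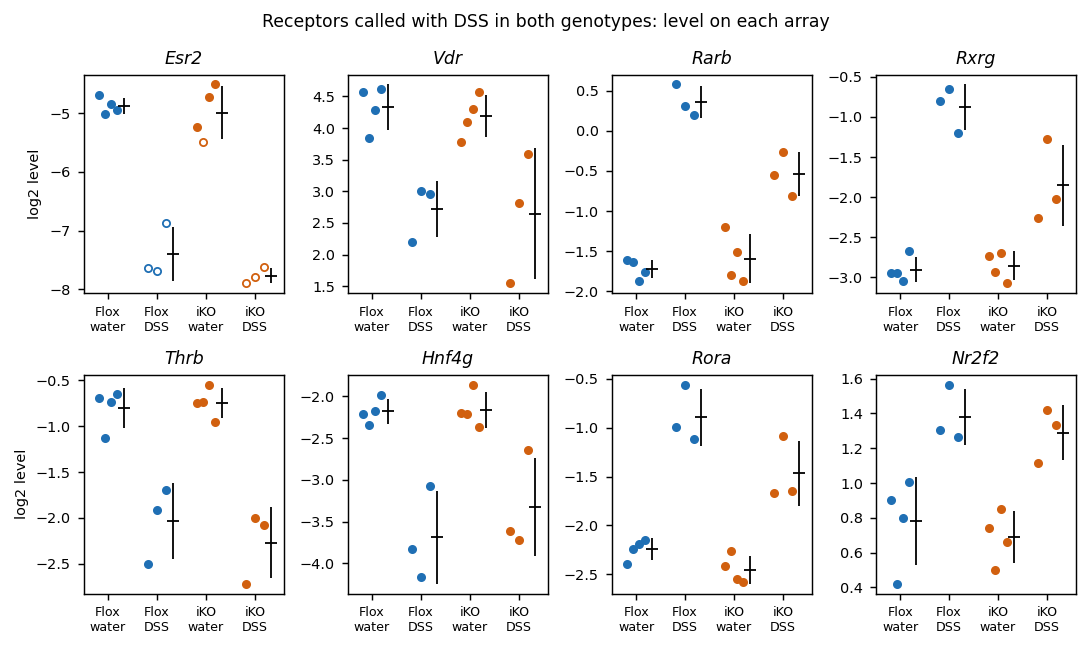
The level on each array (log2 signal over the array's 75th percentile, vertical axis) of the 8 receptors called with DSS in both genotypes is plotted by group, with open circles where the probe was not well above background and black bars for mean ± SD. The water and DSS arrays of the same genotype do not overlap in any panel, and all Esr2 points on DSS are open.

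Nr1i2, the pregnane X receptor that induces drug metabolism genes, behaved like Hnf4a. It was at 3.18, 2.76, 3.06 and 3.22 on Flox water and at 1.69, 1.75 and 2.28 on Flox DSS, and at 2.87, 2.84, 3.19 and 3.11 on GR iKO water and 2.40, 2.76 and 2.99 on GR iKO DSS. The log2 change was -1.15 ± 0.19 (SE) in Flox (limma adjusted p = 0.000292) and -0.29 ± 0.19 in GR iKO mice (adjusted p = 0.236). Nr1i3, the constitutive androstane receptor gene, was not called (0.73 ± 0.42 and 0.22 ± 0.42). Of 13 tested target genes of these receptors, 3 were higher, 6 lower and 4 not called in each genotype, with medians of -0.57 and -0.35. The called shares of all probes were 52.6% in Flox and 44.5% in GR iKO mice. Abcb1a, the P-glycoprotein gene, changed by -2.0 ± 0.64 and -2.2 ± 0.64, and Gstm3, a glutathione transferase gene, by -1.41 ± 0.16 and -1.80 ± 0.16. Cyp3a11, the best known target in liver, rose by 1.99 ± 0.37 and 1.18 ± 0.37.

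Nr1h4, the farnesoid X receptor of bile acids, was called in GR iKO mice alone, with levels of 2.75, 2.74, 2.61 and 2.85 on water and 3.37, 2.74 and 3.54 on DSS. The groups overlapped, through replicate 3 of the DSS group. The change was 0.48 ± 0.17 (SE, limma adjusted p = 0.0378), and in Flox it was -0.11 ± 0.17 (adjusted p = 0.603). The GR iKO call was lost without replicate 1 or 4 of its DSS arrays (0.40, adjusted p = 0.112, and 0.31, adjusted p = 0.168), without GR iKO water replicate 1, 2 or 3 (0.48, 0.48 and 0.43), and without Flox water replicate 1 or 3 (adjusted p = 0.0501 and 0.0509). Of 4 tested bile acid genes, 3 were higher and 1 not called in Flox, beside 52.6% of all probes called. GR iKO mice had 2 higher, 1 lower and 1 not called, beside 44.5%. Slc10a2, the apical bile acid transporter, rose by 2.55 ± 0.41 and 2.48 ± 0.41, and Slc51b, a subunit of the basolateral exporter, by 0.97 ± 0.24 and 1.84 ± 0.24. Fgf15, the bile acid signal of the ileum, was not well above background on any array. Nr0b2, the small heterodimer partner, was well above background on 1 array, Flox DSS replicate 4.

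The liver X receptors, which sense oxysterols, gave no call. Nr1h2 was at 0.14 ± 0.11 (SE) in Flox and -0.13 ± 0.11 in GR iKO mice, and Nr1h3 at 0.07 ± 0.21 and -0.34 ± 0.21. Of 10 of their target genes, 3 were higher, 3 lower and 4 not called in Flox, beside 52.6% of all probes called. In GR iKO there were 3, 2 and 5, beside 44.5%. The higher ones included the cholesterol exporters Abca1 (0.98 ± 0.21 and 1.24 ± 0.21) and Abcg1 (0.87 ± 0.24 and 1.40 ± 0.24), and Srebf1, the activator of fatty acid synthesis, was lower (-0.46 ± 0.12 and -0.51 ± 0.12).

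The peroxisome proliferator-activated receptors, which respond to fatty acids, split between the genotypes in their calls. Ppara, the receptor that drives fatty acid oxidation, was at -0.85, -1.0, -0.62 and -0.61 on GR iKO water and at -3.48, -2.66 and -1.32 on GR iKO DSS. The change was -1.72 ± 0.39 (SE, limma adjusted p = 0.00349) without overlap, over a wide spread of the DSS arrays. In Flox mice it was -0.76 ± 0.39 (adjusted p = 0.117), also without overlap. Ppard was well above background on every array except the 3 Flox DSS arrays, where it stood at -5.87, -5.58 and -4.56 beside -4.12, -4.05, -4.00 and -3.59 on Flox water. With the background subtracted as in the main values, Flox water over DSS was at least 2.43-fold. The test used the measured log2 change of -1.39 (adjusted p = 0.00102), but under normexp background correction the change was 0.18 (adjusted p = 0.426). In GR iKO mice the Ppard change was -0.60 ± 0.27 (adjusted p = 0.0906).

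Pparg, the receptor of colonocytes and fat cells, was at -0.05 ± 0.23 (SE) in Flox and 0.02 ± 0.23 in GR iKO mice and was not called. Of 17 target genes of the 3 receptors, 6 were higher, 3 lower and 8 not called in Flox, beside 52.6% of all probes called. In GR iKO there were 7, 4 and 6, beside 44.5%. Angptl4, a secreted inhibitor of lipoprotein lipase, rose by 4.24 ± 0.57 and 4.90 ± 0.57. Fabp1, the fatty acid binding protein of liver and proximal gut, rose by 4.75 ± 0.71 and 2.90 ± 0.71, and Vnn1, a pantetheinase gene, by 2.2 ± 0.27 and 2.54 ± 0.27. Ehhadh, of peroxisomal oxidation, changed by -1.94 ± 0.22 and -2.14 ± 0.22. Adipocyte markers differed widely between arrays, with a summed level of 4.36 to 5.71 and 5.70 to 7.07 in Flox on water and DSS, and 5.04 to 5.95 and 2.97 to 6.52 in GR iKO mice, and their part in these values was not tested.

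The NR4A receptors are immediate early genes whose levels follow stimulation within the hour. Nr4a1 was at 1.71, 3.03, 1.96 and 1.22 on Flox water and at 3.04, 3.16 and 4.63 on Flox DSS. The lowest DSS array was only just above the highest water array. In GR iKO mice it was at 2.31, 2.24, 2.09 and 1.15 on water and at 3.21, 3.86 and 2.56 on DSS, also without overlap. The change was 1.63 ± 0.50 (SE, limma adjusted p = 0.0149) in Flox and 1.26 ± 0.50 (adjusted p = 0.056) in GR iKO mice. Without Flox DSS replicate 4 the Flox change was 1.12 (adjusted p = 0.0728) and was no longer called. Nr4a2 was at 0.76 ± 0.34 and 0.44 ± 0.34 and not called, and Nr4a3 was not well above background on any array. Of 15 other immediate early genes, 8 were higher, 1 lower and 6 not called in Flox, beside 52.6% of all probes called. GR iKO mice had 8 higher and 7 not called, beside 44.5%. Ier3 rose by 2.71 ± 0.14 and 3.38 ± 0.14, and Dusp1, a phosphatase gene that glucocorticoids also induce, by 1.52 ± 0.23 and 1.88 ± 0.23, while Fos was at -0.58 ± 0.33 and 0.37 ± 0.33 and not called.

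Of the orphan receptors of the COUP-TF, testicular and germ cell groups, Nr2f2 (COUP-TFII), a receptor of mesenchyme and veins, rose in both genotypes. Nr2f2 was at 0.90, 0.42, 0.80 and 1.01 on Flox water and at 1.31, 1.57 and 1.27 on Flox DSS. On GR iKO arrays it was at 0.74, 0.50, 0.85 and 0.66 on water and at 1.11, 1.42 and 1.33 on DSS. The rise was modest and without overlap, 0.60 ± 0.15 (SE, limma adjusted p = 0.00579) in Flox and 0.60 ± 0.15 (adjusted p = 0.00702) in GR iKO mice, 1.51-fold in each. It was 0.26 to 1.14 and 0.37 to 0.67 within slides. Fibroblast markers had a summed level of 6.66 to 6.93 and 7.97 to 8.56 in Flox and 6.56 to 7.08 and 7.87 to 8.17 in GR iKO mice. Of 5 endothelial markers 2 were called higher in Flox (median 0.28) and 1 in GR iKO mice (0.41). For smooth muscle it was 7 of 7 in Flox and 1 of 7 in GR iKO mice. The part of these cell types in the Nr2f2 rise was not tested.

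The remaining orphan receptors gave calls close to the threshold. Nr2f6, an orphan receptor also expressed in lymphocytes, was lower in GR iKO mice (-0.50 ± 0.16, SE, limma adjusted p = 0.0226) and at -0.37 ± 0.16 in Flox (adjusted p = 0.0715). The GR iKO call was lost without DSS replicate 3 (-0.28, adjusted p = 0.0787) and without water replicate 3 (adjusted p = 0.0532) or 4 (adjusted p = 0.0572). Nr2c2, testicular receptor 4, was lower in Flox (-0.62 ± 0.20, adjusted p = 0.0206), with overlapping groups and 1 of 3 slides without a fall (0.04). That call was lost without Flox water replicate 4 (-0.51, adjusted p = 0.0589) or Flox DSS replicate 4 (-0.41, adjusted p = 0.0963), and under normexp background correction, where the change was -0.04. Nr2c1, testicular receptor 2, was at -0.08 ± 0.17 and -0.40 ± 0.17 and not called, although its second probe passed in GR iKO mice (-0.51, adjusted p = 0.0281). Nr6a1, the germ cell nuclear factor gene, was at -0.40 ± 0.16 and -0.25 ± 0.16 and not called. Nr2f1, the COUP-TFI gene, was well above background on 1 of 14 arrays.

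**Figure D3:**
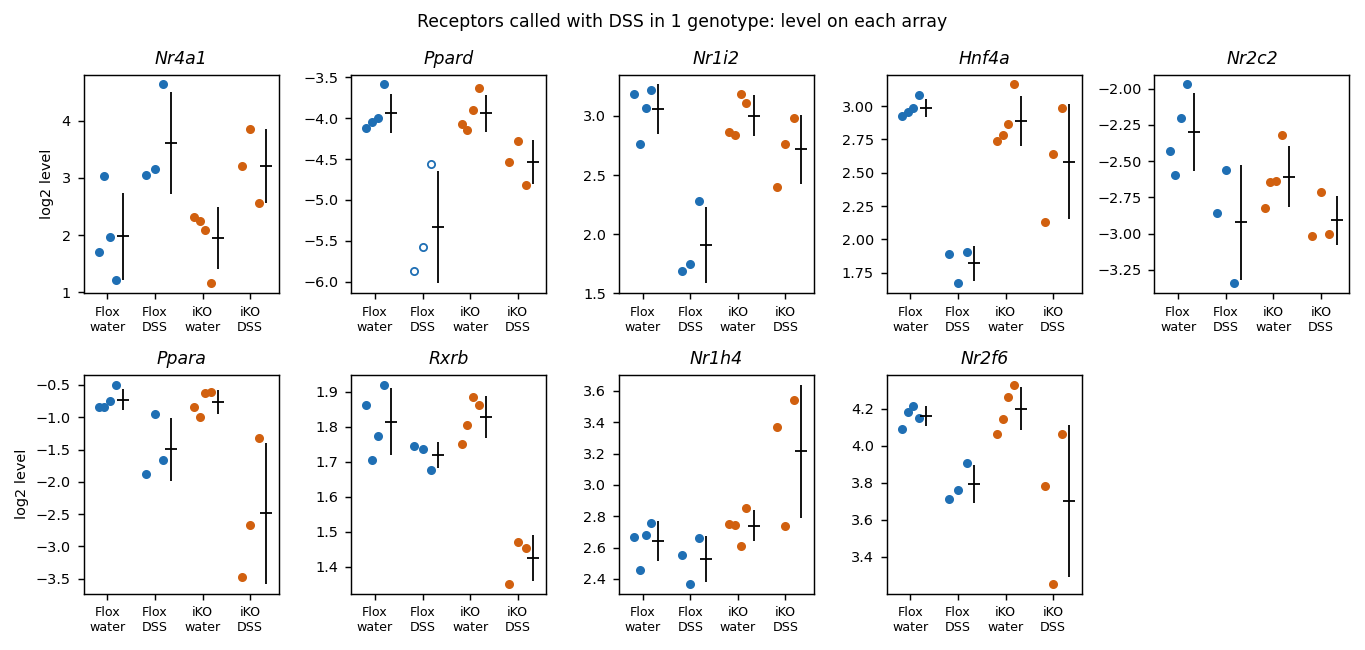
For the 9 receptors called with DSS in 1 genotype, the level on each array (log2 signal over the array's 75th percentile) is plotted by group, with open circles where a probe was not well above background and black bars for mean ± SD. Hnf4a and Nr1i2 on Flox DSS lie below all other arrays, Ppara on GR iKO DSS spreads from -3.48 to -1.32, and all Ppard points on Flox DSS are open.

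Coregulators carry out what the receptors direct. Of 20 tested, 2 were higher, 6 lower and 12 not called in Flox (median 0.03), beside 52.6% of all probes called. In GR iKO there were 3, 4 and 13 (median 0.01), beside 44.5%. Ppargc1a, the coactivator of oxidative metabolism, changed by -2.53 ± 0.46 (SE) in Flox and -3.23 ± 0.46 in GR iKO mice (limma adjusted p = 0.000623 and 0.000167). Nrip1, a corepressor of several members of the family, changed by -1.12 ± 0.12 and -0.95 ± 0.12. The 3 steroid receptor coactivator genes Ncoa1, Ncoa2 and Ncoa3 were not called in either genotype, with values from -0.18 to 0.30.

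The epithelial deletion by itself gave no called difference in these receptors. On water 0 of 32 passed in limma, and 0 had an unadjusted p under 0.05, beside 0.0102% of all tested probes called (0.00677% higher and 0.00339% lower, 3 probes in all, and 898 with an unadjusted p under 0.05). The differences between GR iKO and Flox on water ran from -0.31 (Nr2c2) to 0.21 (Nr4a2). On DSS 0 of 32 passed in limma, beside 0% of all probes. An unadjusted p under 0.05 was found for 5 of 32, beside 4794 of the 29523 tested probes, a similar share. The 5 receptors were Rarb (-0.90 ± 0.22, SE) and Rxrg (-0.97 ± 0.31), which were lower in GR iKO mice, and Nr1h4 (0.69 ± 0.26), Nr1i2 (0.81 ± 0.25) and Hnf4a (0.76 ± 0.26), which were higher, with adjusted p from 0.226 to 0.277. The 3 arrays of the genotypes did not overlap for these 5 nor for Rxrb and Thra, and these 7 of 32 stand beside 22.8% of all probes. Under spike-in scaling, which moved the median of all probes toward higher values in GR iKO mice, Rarb and Rxrg turned to 0.34 and 0.26. There 4 of 32 receptors (Ppard, Nr1h4, Nr1i2 and Hnf4a) were called, all higher, beside 15.3% of all probes, of which 98.7% were higher. With 1 spread shared by all 14 arrays, the 5 with an unadjusted p under 0.05 passed, beside 13.2% of all probes (3902). That fit pools the smaller spread of the water arrays with that of the DSS arrays.

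**Figure D4:**
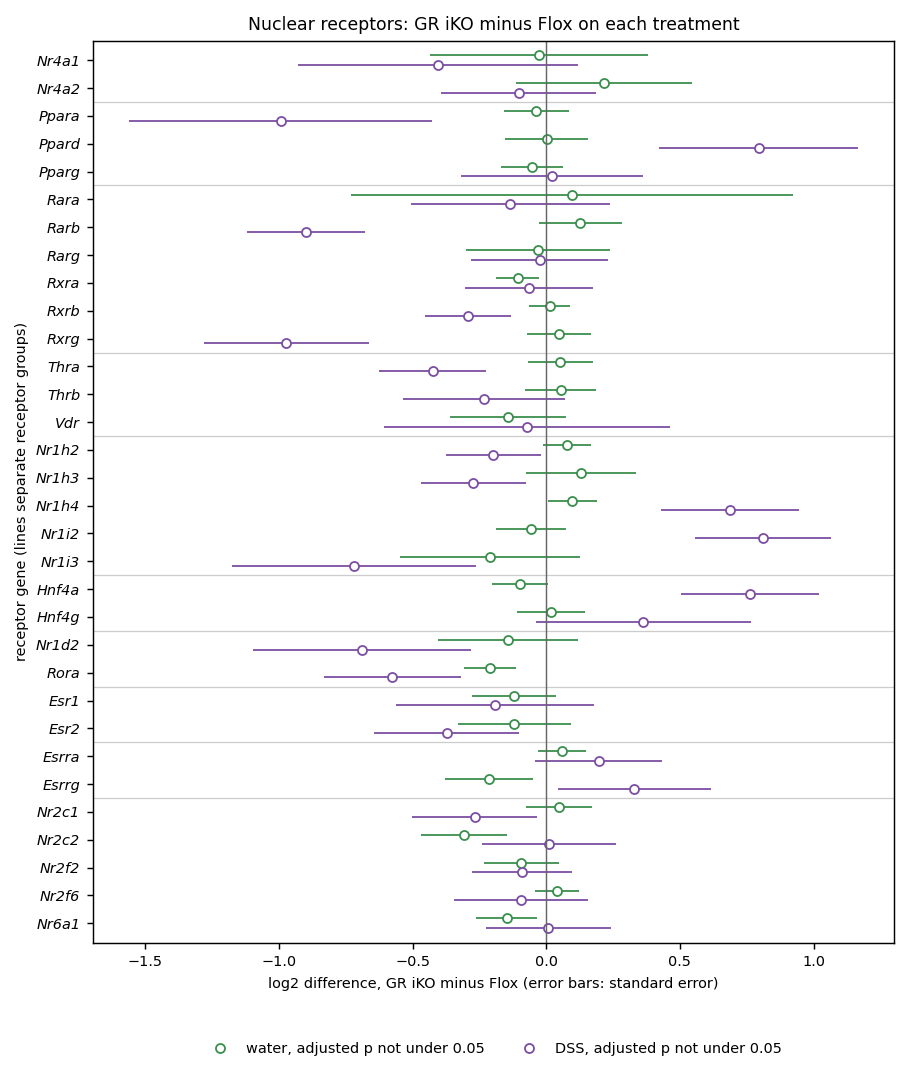
Points give the log2 difference between GR iKO and Flox mice (horizontal axis, with standard error) of each tested receptor on water (green) and on DSS (purple), and open symbols show that none had an adjusted p under 0.05. The water differences lie between -0.31 and 0.21, and the DSS differences between -0.99 (Ppara) and 0.81 (Nr1i2). The 5 receptors with an unadjusted p under 0.05 on DSS (beside 4794 of 29523 probes) are not all the extremes. Rarb and Rxrg (which turned under spike-in scaling) lie at -0.90 and -0.97, and Nr1h4, Nr1i2 and Hnf4a between 0.69 and 0.81, while Ppard, not among the 5, lies at 0.79.

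Whether the DSS effect itself differed between the genotypes was tested by the interaction. There 0 of 32 receptors passed in limma, beside 0.112% of all probes (33, with 0.0881% higher and 0.0237% lower). An unadjusted p under 0.05 was found for 7 of 32, beside 5673 of the 29523 tested probes, a similar share. The lowest adjusted p was that of Rarb, whose rise was smaller in GR iKO mice by a log2 difference of -1.03 ± 0.26 (SE, adjusted p = 0.0777). Rxrg had -1.02 ± 0.31 (adjusted p = 0.112). The fall of Hnf4a and of Nr1i2 was weaker in GR iKO mice by 0.86 ± 0.25 (adjusted p = 0.105) and 0.86 ± 0.26 (adjusted p = 0.116). The other 3 were Nr1h4 (0.59 ± 0.24), Rxrb (-0.31 ± 0.13) and Thra (-0.48 ± 0.21). Under spike-in scaling Rarb and Rxrg both turned to 0.40, Rxrb to 1.12 and Thra to 0.95. There 16 of 32 were called, all higher, beside 64% of all probes, of which 99.96% were higher. These results also moved with single arrays. Without Flox DSS replicate 4, Rarb, Rxrg, Nr1i2 and Ppard passed (4 of 32, beside 7.52% of all probes, 2221). Without GR iKO DSS replicate 3, Rarb, Rxrg and Nr1h4 passed (3 of 32, beside 6.97% of all probes, 2057). For the receptors called in 1 genotype, a difference between the genotypes was therefore not established, and the adjusted p of the interaction was 0.285 for Ppard, 0.372 for Ppara, 0.587 for Nr2c2, 0.795 for Nr2f6 and 0.818 for Nr4a1.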

How the data were processed

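Total RNA from whole colon was labelled with Cy3 and hybridised to Agilent whole mouse genome arrays. Per the file headers, the deposited spot intensity values (processed signal) came from Agilent Feature Extraction 12.0.0.7. The authors also deposited a table of log2 values (per the labels, Partek 6.6), used as an alternative, whose normalization is not given in the sources used here. It correlated with log2 signal at 0.998 or more on every array. Control spots (1639 of 45018) and flagged spots were left out, spots of a probe were averaged and log2 levels were set relative to the 75th percentile. No spot was saturated. Of 29245 probes with a RefSeq accession, 28215 matched a symbol. limma 3.58.1 (R 4.3.3) was run on 29523 probes with Benjamini-Hochberg adjustment over all of them, DSS effects and the interaction on all 14 arrays, and genotype effects within water (8 arrays) or DSS (6 arrays). SE is the moderated fit's standard error. Bounds ("at least") set the bright group's mean against, per array, the lowest signal well above background. They hold only for the background subtraction of the processed signal.

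The members and gene lists were chosen with earlier results of these data known. All 38 members were accounted for, with array values, by rule, for those called in both genotypes in 1 direction without overlap. Array values of other receptors were chosen after they were seen. Up to 3 examples per list were the largest called changes without overlap, and other list members were named after their values were seen for their textbook role. Nothing in the labels ties a number to a litter or cage, and each array was taken as 1 mouse. Of 18 pairs of arrays with the same replicate number, 9 had correlated deviations over 0.1 (range -0.23 to 0.31). These values do not settle whether same-numbered arrays belong together. The main tests did not use the numbers as pairs, and an alternative fit used them as a block. Slides 1 to 4 were tested as blocks. The files hold no mean signal, so normexp (offset 50) used median signal. The number of arrays limits the precision. The fitting script was tested on simulated data. Single values of some list genes are not reported here.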

Additional observations from a re-analysis of the deposited data

Results flagged for a closer look

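In 2 of the 64 groups of 4 water arrays checked among the tested receptors, 1 array stood apart from the other 3. Chance alone flags about 1 in 20 such groups. Thrb was at -1.13 on Flox water replicate 2, and the other 3 lay between -0.73 and -0.65. Without that array the Thrb change with DSS in Flox was -1.34 (adjusted p = 0.000633). Esrrg was at -3.07 on GR iKO water replicate 4, and the other 3 lay between -3.73 and -3.62. Groups of 3 were not checked.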

How the results depend on the processing

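Of 115 alternative values for the 5 counts of called receptors, 108 stayed within 1.5 times the main count. Scaling to spike-in transcripts gave 29 and 20 called with DSS in Flox and GR iKO mice, all lower, 4 between genotypes on DSS and 16 for the interaction. A shared spread gave 5 between genotypes on DSS, beside 13.2% of all probes. Leaving out single arrays gave 0 to 4 for the interaction, beside 0% to 7.52% of all probes. Over all probes, spike-in scaling called 26492 (89.7%) and 16951 (57.4%) with DSS, 4507 (15.3%) between genotypes on DSS and 18880 (64%) for the interaction. Of those called with DSS, 1.12% and 6.35% were higher, where the main values were 46.4% and 49.4%. Normexp gave 65.0% higher in Flox. Its 13 called receptors in Flox were 8 higher and 5 lower, the reverse of the main balance of 5 and 8. Calls of Ppard, Hnf4g, Esr2 and Nr2c2 were lost there, and Nr4a2, Rarg, Esr1 and Nr2f6 were gained. The interaction called 0 to 279 probes under the other settings that kept all arrays.

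Under spike-in scaling the change with DSS in Flox turned to -0.76 for Nr4a1, -0.31 for Rarb, -0.37 for Rxrg, -1.04 for Rora and -1.80 for Nr2f2, and in GR iKO mice to -0.49 for Nr1h4 and -0.37 for Nr2f2. The genotype difference on DSS turned to 0.34 for Rarb and 0.26 for Rxrg, and the interaction to 0.40 for Rarb, 1.12 for Rxrb, 0.40 for Rxrg and 0.95 for Thra. This scaling moves all probes of an array by the same amount, and the amounts of spike-in and RNA per array could not be checked. Normexp turned the Flox change to 0.18 for Ppard and 0.22 for Esr2, and the cause was not tested. Of 912 values for single receptors, 854 kept direction and call, 26 lost and 17 gained it, and 15 turned. The Nr3c1 difference was -0.80 on water and -0.83 on DSS, and with spike-in scaling, added after seeing the data, -0.99 and 0.40.

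With the replicate number as a block, 12 and 14 of 32 receptors were called with DSS in Flox and GR iKO mice. Of all probes 51.6% and 42.7% were called there. The other comparisons called 0 receptors, beside 0% to 0.00339% of all probes. Nr2c2 in Flox (-0.59) was the 1 call lost, and Ppard and Esrrg in GR iKO mice were gained. With slide as a block 13 and 13 of 32 were called, beside 51% and 42.6% of all probes. Called changes ran the same way within every slide for 12 of 13 receptors in Flox and 12 of 12 in GR iKO mice. Limits lie in 3 to 4 arrays a group, the wider spread on DSS, and dim probes such as Esr2, not well above background on any DSS array, and Ppard, not on the Flox DSS arrays.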
